A study of Homo sapiens with 7 samples.

Results

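Genes with a single polyadenylation site (PAS) were those with 1 listed sense site in the table of batch 1, where that site lay in the last exon of a RefSeq mRNA. This rule uses no measured change. It gave 3933 genes out of 15468 with a sense site, beside 10427 mRNA genes with 2 or more. Of the 4563 genes of any kind with 1 sense site, 375 had it outside the last exon and 255 had it in the last exon of another kind of transcript, and both sets were left out. The libraries were made from HEK293, an established human embryonic kidney cell line, by 3′READS, which sequences the RNA at the border of the poly(A) tail, so each read gives the place of a cleavage. Batch 1 held cells given a control siRNA (siCtrl) or an siRNA against Star-PAP (siStar-PAP), PAPα (siPAPα) or PAPγ (siPAPγ). The knockdown (KD) of PAPα and PAPγ together was set against the same siCtrl library of batch 1, and batch 2, made by the 3′READS+ protocol, held siCtrl and siStar-PAP. Each condition had 1 library per batch, and siCtrl and siStar-PAP were the conditions made in both. All 7 libraries come from 1 cell line, and the 4 comparisons that use siCtrl of batch 1 share that library. As each is a bulk sample, fewer cells with an RNA and less RNA per cell cannot be told apart.

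An mRNA 3′ end is made when the cleavage machinery recognises a hexamer, most often AAUAAA, shortly before the site and downstream U- or GU-rich sequence, after which a poly(A) polymerase adds the tail. PAPα and PAPγ are the canonical nuclear enzymes. Star-PAP, encoded by TUT1, is a non-canonical one that binds some pre-mRNAs upstream of the site. Where a gene has several PASs, a change may move reads between its sites, whereas for a gene with one listed site a change is one of level only. BIK and HMOX1, textbook Star-PAP targets, both belong to the genes with a single PAS.

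The sites that the results below turn on are shown first, each as the 30 nt that end at the listed site, 5′ to 3′, from the hg19 genome and in DNA letters. Whether positions in the tables count from 0 or 1 is not given in the sources used here, and they were taken to count from 1, so ends and distances may be off by 1 nt. Capitals mark the poly(A) signal, AATAAA or a variant that differs from it by 1 base.
TUT1, chr11:62342524-62342553, minus strand: tgaagggcAATAAAgctgctagtttattaa
BIK, chr22:43525689-43525718, plus strand: gagtgctcAATAAAatgttggtttccagca
HMOX1, chr22:35790171-35790200, plus strand: tgaaatAATAAAcaacattgtctgatagta
ENO2, chr12:7032831-7032860, plus strand: agcacctccATTAAAgtctgaatcagtgca
ETV4, chr17:41605211-41605240, minus strand: ccttAATAAAggcccccacttctcccatta
PTGES, chr9:132500628-132500657, minus strand: tttttagtcATTAAAtggaagtgtctgcca
CHAC1, chr15:41248681-41248710, plus strand: catactgttaccCATAAAactatctcttta
CD81, chr11:2418598-2418627, plus strand: tttAATAAAgaaggaacatcaggcatgcta
SF3B14, chr2:24290456-24290485, minus strand: atgttAATAAActtgtagctttttgtgaaa
SOX3, chrX:139585150-139585179, minus strand: ctaaatgagatcAATAAAttttataaccaa
EIF3L, chr22:38284609-38284638, plus strand: ggatctcAGTAAAggatctttggagccaga
TIMM17B, chrX:48750732-48750761, minus strand: atgagtatttaaagcccgttttgaaatgcc
The first 3 belong to the targeted gene and to BIK and HMOX1, the next 4 to genes that fell in siStar-PAP and the following 3 to genes that rose. EIF3L and TIMM17B show a site with a rarer variant and one with no signal by this definition. Of these 12 sites, that of ETV4 lay 1 nt past the annotated end of a GENCODE transcript, and the others lay in the 3′ UTR.

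The share of reads held by these genes was large. They took 64.2% of the reads of siCtrl in the batch 1 table, with 68.1%, 66.3% and 66.0% after KD of Star-PAP, PAPα and PAPγ. The share was 67.6% in the double KD, and 49.7% and 51.6% in siCtrl and siStar-PAP of batch 2. The tables held between 2403852 and 16893739 reads per library. Without molecular identifiers, reads are not independent molecules, so intervals on reads given here cover counting error only.

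Reads per gene fell into a low and a high group. Over the 4 libraries of batch 1, the 3933 genes had between 2 and 2134870 reads, with a median of 609 and quartiles of 14 and 3725. Genes with 2 or more sites had a median of 309, with quartiles of 101 and 923. Under 10 reads were seen for 803 genes with a single PAS (20.4%), against 1.57% of genes with several, and 20000 or more for 238 (6.05%), against 0.633%. Genes with a single PAS were more frequent at both ends, and 1353 of them had 50 reads or fewer. The low end is in part set by the rule, since each listed site needed at least 2 reads and a gene with several sites had at least 5.

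**Figure D1:**
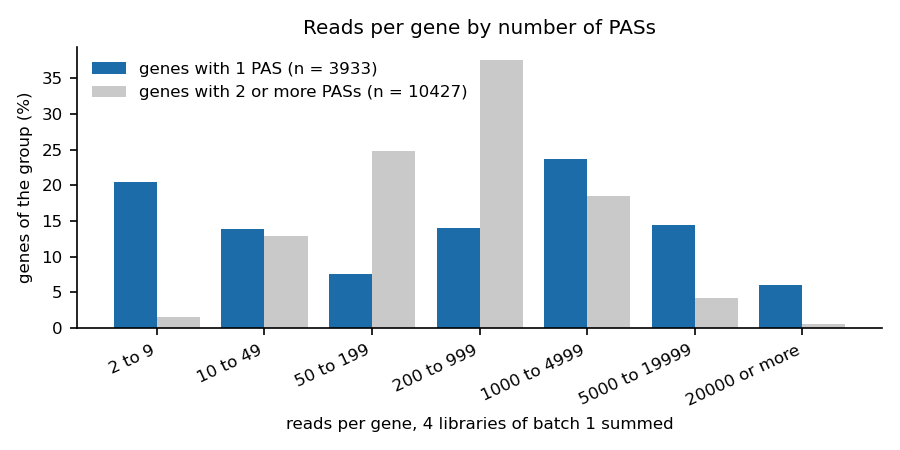
Share of genes (%, vertical axis) in classes of reads per gene, summed over the 4 libraries of batch 1 (horizontal axis), for the 3933 genes with a single PAS (blue) and the 10427 with 2 or more (grey). The blue bars have a low class at 20.4% and a second peak of 23.7% at 1000 to 4999 reads, where grey bars peak at 37.5% for 200 to 999 reads.

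A few genes held much of the signal, the 8 with most siCtrl reads taking 22.2% of the siCtrl reads of all genes with a single PAS and the first 100 taking 56.2%. Among them were SENP3 (a SUMO protease), RPLP1 (a ribosomal protein), PRDX4 (a peroxiredoxin of the secretory pathway), PSENEN (a γ-secretase subunit), NME2 (a nucleoside diphosphate kinase), EIF3I (a subunit of initiation factor eIF3) and RNASEK. Levels are given as reads per 1000000 PASS reads of the library (RPM). As a read marks 1 RNA end, RPM is not scaled by transcript length.

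SENP3 had 22881 RPM in siCtrl of batch 1 and 10556, 2232, 11338 and 3187 RPM after KD of Star-PAP, PAPα, PAPγ and both. It was lower in each of these KDs than in siCtrl, and lowest in siPAPα and the double KD. In batch 2 it had 2896 RPM in siCtrl and 2595 in siStar-PAP. For RPLP1, the batch 1 values were 17370 RPM in siCtrl and 37541, 34535, 30335 and 28082 RPM after KD of Star-PAP, PAPα, PAPγ and both, so that every KD was above siCtrl, as it was in batch 2 (1127 RPM in siCtrl and 1573 in siStar-PAP). PRDX4 went from 16439 RPM in siCtrl to 14497, 7002, 9027 and 7112 RPM after KD of Star-PAP, PAPα, PAPγ and both. PSENEN and EIF3I were higher in these KDs. PSENEN had 12865 RPM in siCtrl of batch 1 and 30539, 23398, 18667 and 24784 RPM after KD of Star-PAP, PAPα, PAPγ and both. EIF3I had 10379 RPM in siCtrl and 15703, 18977, 11305 and 12911 RPM in the same order. RNASEK, in contrast, had 7223 RPM in siCtrl and 6492, 3992, 4134 and 4271 RPM, below siCtrl in each. In siStar-PAP over both batches, none of these 7 genes passed the edgeR fit described below, while DESeq2 called RPLP1 and PSENEN higher (DESeq2 adjusted p = 0.0125 and 0.0161). NME2 had 11240 RPM in siCtrl of batch 1 and 9.90 in that of batch 2, and its site is also listed for the readthrough gene NME1-NME2, so its reads cannot be given to 1 of these genes.

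Levels in siCtrl of the 2 protocols correlated with a Pearson r of 0.72 and a Spearman rho of 0.71 on the log2 scale over 2795 genes with reads in both. These are values across genes, which are not independent replicates. The log2 ratio of batch 2 to batch 1 had a standard deviation of 2.26 across these genes. Levels are therefore compared within a batch.

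In the other 2 tables, most of these genes were again listed with a single site. The table of the double KD listed 3353 of the 3933 (85.3%), and 78.1% of those had 1 sense site there. In batch 2, 3038 (77.2%) were listed and 72.9% of those had 1 site. One site in each of the 3 tables was found for 1951 genes. The more reads a gene had, the less often it stayed with 1 site. In batch 2, 65.3% of listed genes with more than 1000 reads had 1 site, against 84.9% of those with 50 or fewer.

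The added sites held few reads. Within 24 nt of the original site, the distance used to cluster sites, lay 99.8% of the reads of these genes in the double KD table and 98.5% in batch 2. Last-exon sites farther away took 0.193% and 1.26% of the reads, and intronic sites 0.0303% and 0.187%. Of listed genes with 50 reads or fewer in batch 1, however, only 79.4% had any read within 24 nt in batch 2.

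Single sites carried the canonical signal more often than the sites of other genes. In the 40 nt that end at the site, AATAAA was found for 2723 of 3933 sites (69.2%, exact Clopper-Pearson 95% interval 67.8 to 70.7%). ATTAAA followed with 14.4%, another variant with 11.3%, and 196 sites (4.98%) had none of these. In genes with several sites, the most-read last-exon site had AATAAA in 60.8% (59.8 to 61.8%) and the remaining last-exon sites had it in 36.9% (36.3 to 37.5%), while over all 37921 last-exon sites the share was 46.4%. In an equally long window that ended 60 nt before the site, it was found for only 1.398% of single sites.

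The difference was also there when sites were split into classes by their own reads. The classes are broad, so numbers of reads were not matched within them. With more than 1000 reads, 73.1% (71.0 to 75.2%) of single sites and 63.5% (61.2 to 65.8%) of the most-read sites of other genes had AATAAA. With 50 reads or fewer the shares were 62.5% (59.9 to 65.1%) and 54.7% (52.4 to 56.9%). The share of single sites with no signal was 2.19% in the former class and 9.83% in the latter. Where AATAAA was present, it began a median of 23 nt before the site, and 93.0% lay between 10 and 30 nt from it, as at the sites of HMOX1 and TUT1 (24 and 22 nt).

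Single sites stood in GC-richer sequence and closer to the stop codon. From 100 to 41 nt before the site, their median GC content was 46.7%, against 36.7% for the most-read sites of genes with several. The trimer AUA, the core of the Star-PAP motif, counted as ATA on the sense strand only, was present in 42.6% (41.01 to 44.1%) against 58.8% (57.7 to 59.8%), and over all last-exon sites in 59.5%. As ATA holds no G or C, its share and the GC content are not separate measures. The median 3′ UTR up to the site was 491 nt for genes with a single PAS and 962 nt for those with several. An annotated GENCODE transcript end lay within 24 nt for 81.4% (80.1 to 82.6%) and 58.5% (57.5 to 59.5%), counted over the 3877 and 9109 genes matched to a protein-coding transcript.

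**Figure D2:**
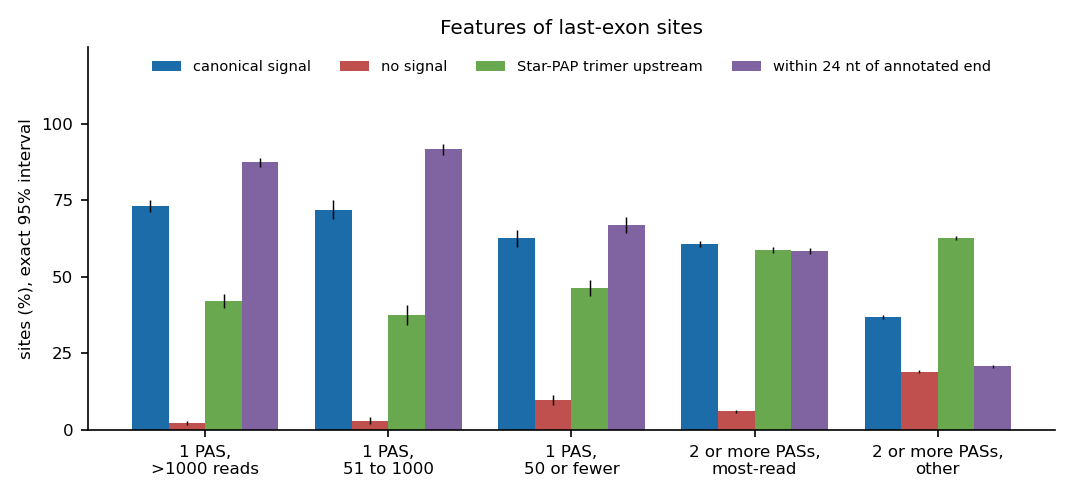
Percent of last-exon sites (vertical axis, with exact 95% intervals) with the canonical signal, with no signal, with the Star-PAP trimer from 100 to 41 nt before the site and within 24 nt of an annotated transcript end, for single sites in 3 classes of reads and for the most-read and other last-exon sites of genes with several PASs. The canonical signal ranges from 73.1% in single sites with more than 1000 reads to 36.9% in the other sites of genes with several.

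Genes with a single PAS were spread unevenly over the genome. They made up 40.5% of the listed mRNA genes of chromosome 19 (442 of 1091) and 38.3% of chromosome 22, but 14.9% of chromosome 13. Genes without an intron were 3.82% of them.

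Some gene groups had a single PAS more often than others. All 18 groups were set by symbol, and the share over all genes was 3933 of 15468. The largest shares were among spliceosomal Sm, LSm and SF3 proteins (19 of 33), proteasome subunits (19 of 37), cytosolic ribosomal proteins (41 of 82), subunits of the respiratory chain and ATP synthase (41 of 83), claudins (6 of 13) and mitochondrial ribosomal proteins (34 of 76). Next came cytokines and TNF family (37 of 88), histones (24 of 59) and G protein-coupled receptors (52 of 130). Among zinc finger proteins, which are mostly transcription factors, 76 of 555 had a single PAS. Shares below that of all genes were also found for protocadherins (5 of 49) and mitochondrial protein import (4 of 22). Solute carriers, with 68 of 274, were near the share over all genes.

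The housekeeping groups were at high levels in siCtrl with short 3′ UTRs. The median level was 227 RPM for ribosomal proteins, whose median 3′ UTR was 54.0 nt, 149 RPM and 122 nt for the respiratory chain and 156 RPM and 124 nt for the proteasome. G protein-coupled receptors (52 members) were at the other end, with a median of 0 RPM, 28 at 0 reads in siCtrl and 41 with 50 reads or fewer over batch 1. Potassium channels (14 of 18 with 50 reads or fewer), cytokines and TNF family (27 of 37) and histones (17 of 24) were likewise low. For 0 reads in siCtrl, counting error allows up to 3 reads.

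The targeted genes were read first in the KDs. TUT1 had 7.26 RPM (83 reads) in siCtrl of batch 1 and 0.121 (2 reads), 9.09, 5.61 and 8.94 RPM after KD of Star-PAP, PAPα, PAPγ and both. In siStar-PAP of batch 1 it was thus at 1.66% of siCtrl (exact 95% interval of the ratio 0.198 to 6.20%). In batch 2 it had 6 reads in siCtrl and 4 in siStar-PAP, a ratio of 79.2% (16.4 to 334%), so that the depth there cannot show the KD. PAPOLA and PAPOLG, for PAPα and PAPγ, have several sites. PAPOLA had 71 reads in siCtrl and 12 in siPAPα, 7.70% by RPM, and 6.24% in the double KD. PAPOLG had 5 reads in siCtrl, 15 in siPAPγ (232% by RPM) and 6 in the double KD, so its RNA does not check the KD of PAPγ at these counts.

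Of the HEK293 markers, VIM was at 152 RPM, KRT18 at 2648, NEFL at 36.7 and INA at 49.3 in siCtrl of batch 1. Others were low there, with LIN28B at 6.74 RPM, NEFM at 3.06, and KRT8 and PAX2 under 2 RPM. Of 9 markers of other cell types, ACTA1 and COL1A1 had 5 reads each in that library and the other 7 had none. In siCtrl of batch 2, COL1A1 had 12 reads and ACTA1 none.

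In siStar-PAP, most genes with a single PAS were lower by RPM, as were genes at large. The level of a gene was called changed where the RPM ratio was past 2-fold in libraries with more than 50 reads together, a call without a test. In batch 1, 2387 of the 3933 passed the read filter. Of them 584 were lower (24.5%, against 26.2% of all genes tested) and 107 higher (4.48%, against 4.44%). The median log2 ratio was −0.35, against −0.45 for all genes. Relative to that median, 324 were lower (13.6%, against 13.4% of all genes) and 295 higher (12.4%, against 10.9%). These shares were near those of all genes.

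In batch 2, 1862 passed the filter, of which 207 were lower (11.1%, against 11.7%) and 72 higher (3.87%, against 3.55%). The median was −0.14, against −0.16 for all genes. Relative to the latter, 161 were lower (background 8.62%) and 110 higher (background 5.72%).

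The siStar-PAP changes of the 2 batches, which have no library in common, went together across genes. Over 1788 genes with a single PAS and more than 50 reads in each batch, the log2 ratios correlated at r = 0.54 (rho 0.51), and 68.8% were on the same side of the median gene in both. For all 6541 such genes r was 0.47 and the share 65.3%. More than 2-fold lower in both batches were 115 genes (6.43%, against 6.13% of all 6541), and 22 were higher in both (1.23%, against 1.10%). C19orf51 and RSAD1 were past 2-fold in opposite directions, lower in batch 1 and higher in batch 2.

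**Figure D3:**
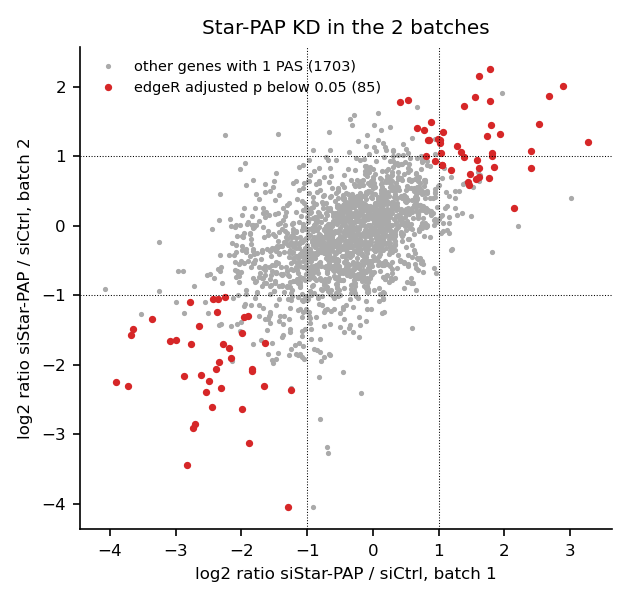
Log2 ratio of RPM in siStar-PAP to siCtrl in batch 1 (horizontal axis) and batch 2 (vertical axis) for 1788 genes with a single PAS and more than 50 reads in each batch. Dotted lines mark 2-fold, and the 85 red points, which lie at the lower left and upper right, had an edgeR adjusted p below 0.05.

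Both batches were then fitted together with edgeR, with batch as a block and Benjamini-Hochberg adjustment over all 11614 genes. Of 2563 genes with a single PAS in this fit, 50 fell (1.95%, against 1.08% of all genes tested) and 49 rose (1.91%, against 1.21%). Genes with a single PAS also had a higher median of reads than those with several, and the part of this in the higher shares was not tested. The fit has 1 residual degree of freedom. Its log2 fold changes are relative to TMM factors, under which the median of all genes is −0.01 and that of these genes 0.05. Without the batch as a block, 0 genes passed, and the reason for this was not tested. At an unadjusted p below 0.05 there were then 13 lower and 4 higher, while DESeq2 with the block called 43 lower and 84 higher. Both tools called 37 of the lower and 45 of the higher genes. The shares of all genes without the block and by DESeq2 are not given here, so these counts have no background.

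Among the genes that fell were 2 metabolic enzymes, a tubulin-binding protein and a membrane protein. ENO2, the neuronal form of the glycolytic enzyme enolase, had 100.6 RPM in siCtrl and 15.2 in siStar-PAP of batch 1, and 44.2 and 5.88 in batch 2. It was lower in siStar-PAP in both batches, with a log2 fold change of −2.43 ± 0.37 (SE, edgeR adjusted p = 0.0019). PTGES, which makes prostaglandin E2, went from 19.0 to 1.27 RPM in batch 1 and from 8.91 to 1.88 in batch 2 (−2.83 ± 0.56, edgeR adjusted p = 0.011), the largest fall among genes with 50 reads or more in each batch. TPPP3, which promotes tubulin polymerization, had 8.14 and 1.15 RPM in siCtrl and siStar-PAP of batch 1, and 17.8 and 1.65 in batch 2. APLP1, a homologue of the amyloid precursor protein, had 50.6 and 6.89 RPM in batch 1, and 13.7 and 3.06 in batch 2. Both fell, by 2.71 and 2.21 on the log2 scale (edgeR adjusted p = 0.012 and 0.0076).

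ETV4, an ETS family transcription factor, fell in siStar-PAP and was lower still in the other KDs. It had 151 RPM in siCtrl and 23.1, 4.54, 11.2 and 2.50 RPM after KD of Star-PAP, PAPα, PAPγ and both, with 42.4 and 5.88 RPM in siCtrl and siStar-PAP of batch 2. The siStar-PAP log2 fold change was −2.39 ± 0.36 (edgeR adjusted p = 0.0019).

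CHAC1, a glutathione-degrading enzyme that rises in the integrated stress response, differed between the batches. It had 11.1 and 4.53 RPM in siCtrl and siStar-PAP of batch 1 and 244 and 14.8 RPM in those of batch 2. Its siCtrl level was the one that stood out, and the fall was 40.8% of siCtrl left in batch 1 and 6.08% in batch 2 (−2.35 ± 0.53 in the fit, edgeR adjusted p = 0.023).

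TAF15, an RNA-binding protein of the FET family, was the one of the 8 largest falls that went the other way in the remaining KDs. It had 39.4 RPM in siCtrl and 3.14, 82.3, 65.0 and 67.6 RPM after KD of Star-PAP, PAPα, PAPγ and both, and 39.4 and 14.1 RPM in batch 2 (−2.22 ± 0.44 in siStar-PAP, edgeR adjusted p = 0.011). It was listed with 3 sites in each of the other 2 tables. FAM131C, the eighth, had 7.96 and 0.604 RPM in batch 1 and 10.5 and 2.12 in batch 2, and fell by 2.67 on the log2 scale (edgeR adjusted p = 0.029).

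BIK and HMOX1, named because they are reported Star-PAP targets, were lower in every KD. BIK, a pro-apoptotic BH3-only protein, had 306 RPM in siCtrl of batch 1 and 77.5, 44.8, 73.1 and 35.4 RPM after KD of Star-PAP, PAPα, PAPγ and both. In batch 2, siCtrl had 18 reads of it (3.57 RPM) and siStar-PAP 3 (0.706 RPM). Its log2 fold change in siStar-PAP was −1.59 ± 0.40 (edgeR adjusted p = 0.041). HMOX1, heme oxygenase 1, had 13.3 RPM in siCtrl of batch 1 and 1.39, 1.83, 5.00 and 1.76 RPM after KD of Star-PAP, PAPα, PAPγ and both, and 26 and 2 reads in batch 2 (−2.88 ± 0.66, edgeR adjusted p = 0.024). Both genes thus fell in siStar-PAP, and in the single libraries of siPAPα and the double KD, BIK was at 14.7% and 11.6% of siCtrl. TUT1 itself, at 6 and 4 reads in batch 2, did not pass the fit (edgeR adjusted p = 0.28).

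Genes that rose included a cell surface protein, a splicing protein and a transcription factor. CD81, a tetraspanin of the cell surface, had 285 RPM in siCtrl and 1637, 1067, 1222 and 1155 RPM after KD of Star-PAP, PAPα, PAPγ and both. In batch 2 it had 368 and 1018 RPM, so siStar-PAP was above siCtrl in both (2.35 ± 0.41, edgeR adjusted p = 0.0059). SF3B14, a U2 snRNP protein at the branch point, went from 20.8 to 71.6 RPM in batch 1 and from 31.7 to 151 in batch 2 (2.37 ± 0.34, edgeR adjusted p = 0.0019). After KD of PAPα, PAPγ and both it had 111, 95.2 and 87.4 RPM, again above siCtrl.

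SOX3, a transcription factor of the SOX family, was higher too. It had 2.54 RPM in siCtrl and 24.5 in siStar-PAP of batch 1, and 6.34 and 14.6 in batch 2 (edgeR adjusted p = 0.012). The rise was larger in batch 1, at 964% of siCtrl, than in batch 2, at 230%, a difference that was not tested.

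MSRA, a reductase that repairs oxidized methionine, had the largest rise among genes with 50 reads or more in each batch. It was listed with 2 sites in each of the other 2 tables, and went from 41.5 to 309 RPM in batch 1 and from 8.91 to 36.0 in batch 2 (2.87 ± 0.39, edgeR adjusted p = 0.0016). PPT1, a lysosomal thioesterase, had 40.3 and 138 RPM in batch 1 and 13.3 and 46.1 in batch 2 (2.15 ± 0.35, edgeR adjusted p = 0.0032). After KD of PAPα, PAPγ and both it had 44.8, 52.8 and 54.1 RPM, up to 133% of siCtrl, and 2 sites in each of the other 2 tables. DHRS2, a short-chain dehydrogenase, and NACC1, a BTB domain repressor, rose as well, with log2 fold changes of 2.63 ± 0.56 and 2.21 ± 0.44 (edgeR adjusted p = 0.017 and 0.011).

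**Figure D4:**
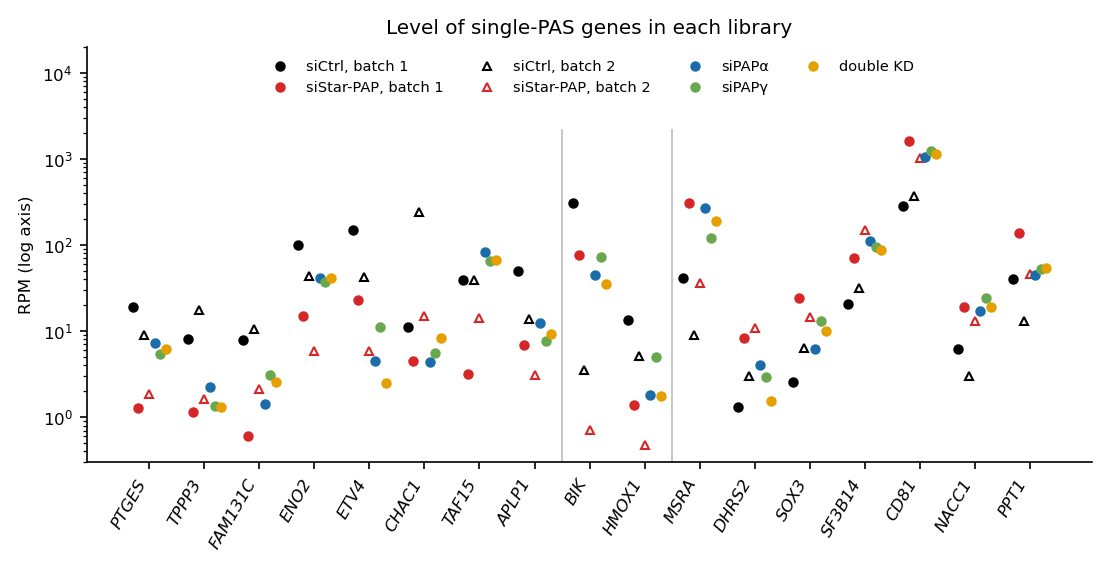
RPM on a log axis of the 8 largest falls in siStar-PAP (left), BIK and HMOX1 (middle) and 7 of the 8 largest rises (right), with 1 point per library and no error bars, as each is a single library (filled circles, batch 1 and double KD; open triangles, batch 2). The red points lie below the black ones of the same batch for all 10 genes on the left and middle, and above them for the 7 on the right.

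In siPAPα, 2450 genes with a single PAS passed the read filter, and 548 were lower (22.4%, against 22.1% of all genes tested) and 235 higher (9.59%, against 8.50%). The median was −0.19, against −0.26 for all genes. Relative to the latter, 421 were lower (background 15.4%) and 366 higher (background 13.1%). With 1 library of each condition there is no test, and the differences are between these libraries.

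Among genes with at least 200 reads, the lowest in siPAPα were SEMA3F, a secreted semaphorin, ETV4, METRN, a secreted neurotrophic factor, and GSC, the homeobox gene goosecoid. SEMA3F had 205 reads in siCtrl and 11 in siPAPα, 17.9 and 0.438 RPM, a ratio of 2.44% (1.201 to 4.47%). METRN and GSC were at 3.78% and 3.97% of siCtrl. At the high end, ARL2, a small GTPase that acts in tubulin folding, had 2.19 RPM in siCtrl and 31.9 in siPAPα. ARMC5, an armadillo repeat protein, went from 11.4 to 156 RPM. MMP24, a membrane metalloproteinase, and SLC46A3, a lysosomal transporter, had 8 and 12 reads in siCtrl and 220 and 245 in siPAPα.

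In siPAPγ, 2391 passed, and 495 were lower (20.7%, against 20.7% of all genes) and 145 higher (6.06%, against 5.67%). The medians were −0.27 and −0.33. Relative to the median gene, 301 were lower (background 12.1%) and 252 higher (background 10.2%). GSC was lowest, with 114 RPM in siCtrl and 7.10 in siPAPγ (6.20% of siCtrl, 5.04 to 7.57%), followed by ETV4 (7.45%), TMEM17, a protein of the ciliary transition zone (7.72%), and DNAJC27 (9.02%). Among the highest were ARL2, with 25.1 RPM in siPAPγ, ARMC5, with 86.9, and SALL2, a zinc finger transcription factor, with 3.59 RPM in siCtrl and 23.99 in siPAPγ.

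In the double KD, 2396 passed, and 585 were lower (24.4%, against 26.5% of all genes) and 172 higher (7.18%, against 6.98%). The medians were −0.29 and −0.38, and relative to the latter 367 were lower (background 16.1%) and 360 higher (background 13.6%). ETV4 was lowest at 1.66% of siCtrl (1.22 to 2.22%), and METRN, SEMA3F and CCDC85B followed at 2.52%, 4.45% and 4.47%. MMP24 (12.4 RPM), ARL2 (32.4), ARMC5 (147) and DISP2 (11.9) were highest, from 0.700, 2.19, 11.4 and 1.23 RPM in siCtrl.

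The same genes were read in siStar-PAP. ARMC5 had 10.8 RPM in siStar-PAP of batch 1, against 11.4 in siCtrl, and 80.2 against 154 in batch 2 (log2 fold change −0.18 ± 0.36, edgeR adjusted p = 0.87). MMP24 had 0 reads in siStar-PAP of batch 1, where siCtrl had 8, and 13 against 43 reads in batch 2 (edgeR adjusted p = 0.35). ARL2, in contrast, rose, with 18.1 RPM in siStar-PAP of batch 1 and 7.77 in that of batch 2, where siCtrl had 0.792 from 4 reads (3.52 ± 0.53, edgeR adjusted p = 0.0019). GSC, METRN and TMEM17 fell in siStar-PAP (edgeR adjusted p = 0.0073, 0.044 and 0.041). In batch 2 these falls rest on few reads, with 63 and 12 in siCtrl and siStar-PAP for GSC, 18 and 3 for METRN, and 6 and 2 for TMEM17, whose ratio there was 39.6% (3.91 to 221%). DESeq2 called GSC (DESeq2 adjusted p = 0.0011) and gave no adjusted p for METRN, TMEM17 and ARL2. SEMA3F, DNAJC27 and CCDC85B had adjusted p of 0.11, 0.13 and 0.12 in the same edgeR fit.

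By gene group, few members passed the fit in siStar-PAP. Over all 11614 genes tested there, 1.08% fell and 1.21% rose, and the calls in each group were too few to compare with these shares. All 40 ribosomal protein members in the edgeR fit missed the threshold. At an unadjusted p below 0.05 by edgeR, 25 were higher, and DESeq2 called 11 of 37 higher. The shares of all genes by these measures are not given here, so neither count has a background. Of the 40, 38 lay above the median gene and their median was 0.84 on the log2 scale, against −0.01 for all genes. By RPM their median was 0.41 in batch 1 and 0.57 in batch 2. After KD of PAPα, PAPγ and both it was 0.59, 0.25 and 0.25, above the median of all genes in each. RPS18, not listed in batch 2, was highest in batch 1 (16.5 RPM in siCtrl and 39.7 in siStar-PAP) and RPL36AL lowest (210.1 and 99.8 RPM).

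Of 41 members of the respiratory chain and ATP synthase, NDUFB2, a complex I subunit, fell (background 1.08%) and 2 rose (background 1.21%). The latter were COX6A1 and ATP5B, named after their values were seen. NDUFB2 had 290.2 and 46.4 RPM in batch 1 and 244 and 90.1 in batch 2 (−1.69 ± 0.35, edgeR adjusted p = 0.014), with 306 RPM in siPAPα. ATP5G2 was highest in batch 1, with 1696 and 4047 RPM. PSMB6, a proteolytic subunit of the proteasome, was the 1 of 19 proteasome members past the threshold (292 and 815 RPM in batch 1, 97.1 and 163 in batch 2, edgeR adjusted p = 0.036), whereas PSMB10 had 21.4 and 5.86 RPM in batch 1 and 130 and 119 in batch 2.

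EIF3L, whose site has the variant AGTAAA, was the 1 of 17 initiation factor members that passed. It had 139 RPM in siCtrl and 408, 337, 756 and 967 RPM after KD of Star-PAP, PAPα, PAPγ and both (2.06 ± 0.36 in siStar-PAP, edgeR adjusted p = 0.0059). In batch 2 it had 20 and 61 reads. It had 4 and 3 sites in the other 2 tables. EIF2C2, which is Argonaute 2 and falls in this group by its symbol only, was the lowest and had 69.7 and 34.0 RPM in batch 1.

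Histone members with enough reads were mostly lower. Of 7, 5 were past 2-fold lower in siStar-PAP of batch 1 (background 26.2%) and 3 in that of batch 2 (background 11.7%). After KD of PAPα, PAPγ and both, 3, 3 and 5 of the 7 were lower (background 22.1%, 20.7% and 26.5%), against the same siCtrl of batch 1. HIST1H2AG, named after its values were seen, passed the siStar-PAP fit (298 and 75.4 RPM in batch 1, 64.2 and 10.4 in batch 2, edgeR adjusted p = 0.0075). H2AFZ, a replacement histone, had 96.6 and 13.1 RPM in batch 1 and 13.7 and 8.71 in batch 2 (edgeR adjusted p = 0.069). HIST1H2BK was highest, with 247 and 232 RPM in batch 1, but its site lay 8068 nt past the annotated end.

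For the remaining groups, ZBTB4 rose among 53 zinc finger members (edgeR adjusted p = 0.034), and ZNF433 was the lowest of them in batch 1, with 5.60 and 1.45 RPM at a site that lay in a coding exon by GENCODE. Of 14 HOX, FOX and SOX members 2 rose (background 1.21%), SOX3 among them, and HOXD10 was lowest (16.5 and 6.04 RPM in batch 1, edgeR adjusted p = 0.13). SF3B14 rose among 18 spliceosomal members, and SNRPA was lowest at 139 and 82.8 RPM. No member passed among mitochondrial ribosomal proteins (33 in the fit), mitochondrial import (4), RNA polymerase (7), solute carriers (38), cytokines (8), G protein-coupled receptors (10), potassium channels (4) or ubiquitin conjugation enzymes (7) by edgeR, nor did the 1 claudin in the fit, CLDND2 by symbol, and no protocadherin had enough reads for it. At an unadjusted p below 0.05 by edgeR, 6 mitochondrial ribosomal proteins, 2 import genes, 1 RNA polymerase subunit and 1 potassium channel were higher, 3 cytokines, 1 receptor, 1 conjugation enzyme and the claudin were lower, and 6 solute carriers were lower and 8 higher. DESeq2 called 1 mitochondrial ribosomal protein and 1 import gene higher and 0 in the other groups of this list. For unadjusted p and for DESeq2, the shares of all genes are not given here.

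Other extremes of these groups in siStar-PAP of batch 1 were as follows. MRPL39 had 5.34 and 1.51 RPM in siCtrl and siStar-PAP, and MRPL37 25.6 and 49.1. POLR2B, the second largest subunit of RNA polymerase II, had 45.9 and 15.95 RPM, with 0 and 4 reads in batch 2, and POLR2K had 72.1 and 123.3. TIMM17B and TOMM7, of the inner and outer membrane import machinery, had 120.8 and 130.2 RPM and 3748 and 7225 RPM, so both ends of the import group were above siCtrl. The potassium channel subunit KCNAB2 had 40.8 and 76.6 RPM. GPR137 and GPR135 had 14.4 and 4.89 RPM and 3.06 and 5.08 RPM. UBE2L6, a conjugating enzyme for ISG15, had 41.7 and 17.2 RPM, UBE2G2 235 and 261, and the TNF family ligand TNFSF9 3.76 and 3.69.

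IL11, a cytokine, had 9.10 RPM in siCtrl and 1.57, 0.917, 1.42 and 0.532 RPM after KD of Star-PAP, PAPα, PAPγ and both, with 27 and 2 reads in batch 2 (edgeR adjusted p = 0.090). SLC46A3 and SLC45A3 marked the ends of the solute carriers in batch 1, with 1.05 and 8.52 RPM for the former and 22.2 and 2.84 RPM for the latter. Neither passed (edgeR adjusted p = 0.12 and 0.14).

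The change was also set beside features of the site. By poly(A) signal, the medians in siStar-PAP of batch 1 were −0.34 for AATAAA (1740 genes), −0.28 for ATTAAA (361), −0.45 for another variant (231) and −0.42 for none (55). In batch 2 they were −0.12, −0.17, −0.15 and −0.36, so the order of the classes was not the same in both. The quartiles of all classes overlapped.

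By AUA count, sites with 3 or more trimers had a median of −0.61 in siStar-PAP of batch 1 (159 genes), against −0.29 for those with 1 or 2 (816) and −0.36 for those with none (1412). In batch 2 the medians were −0.16, −0.13 and −0.14. The median at 3 or more trimers was the lowest in both batches, by far less in batch 2. In the same order of classes, siPAPγ had −0.45, −0.19 and −0.31 and the double KD −0.42, −0.19 and −0.34, so the lowest class was the same. In siPAPα the medians were −0.20, −0.04 and −0.27, lowest at sites with none. These 3 KDs share siCtrl with siStar-PAP of batch 1.

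By GC content of the same region, sites at 55% or more had the lowest median in every comparison. In siPAPα the medians were 0.00 under 40% GC (807 genes), −0.05 at 40 to 55% (804) and −0.51 at 55% or more (839). Lower than 2-fold were 17.5%, 17.9% and 31.3% of these classes. The corresponding medians were −0.31, −0.29 and −0.45 in siStar-PAP of batch 1, −0.22, −0.17 and −0.46 in siPAPγ, −0.20, −0.16 and −0.51 in the double KD, and −0.11, −0.11 and −0.21 in siStar-PAP of batch 2. The first 4 of these share siCtrl of batch 1.

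**Figure D5:**
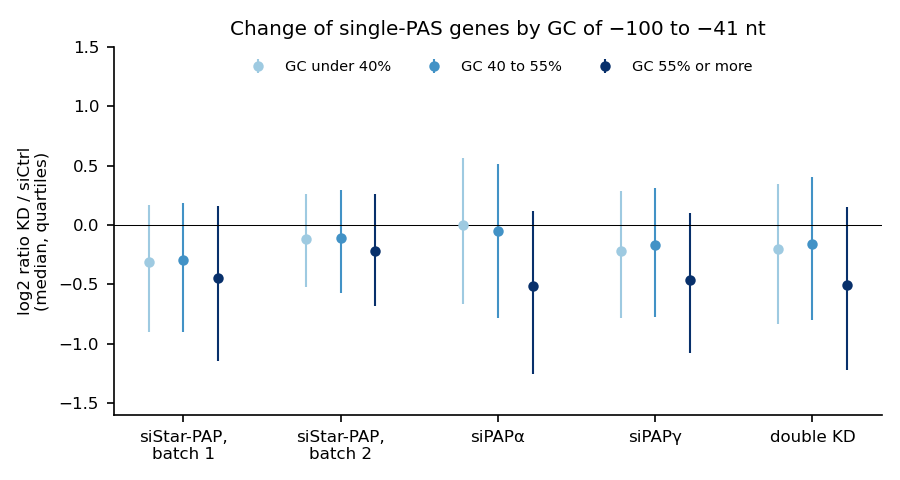
Log2 ratio of RPM in each KD to siCtrl (vertical axis) for genes with a single PAS in 3 classes of GC content from 100 to 41 nt before the site. Points are medians and bars the quartiles across genes. The darkest points (55% GC or more) are lowest in each KD, at −0.51 in siPAPα and −0.21 in siStar-PAP of batch 2, and the bars overlap.

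By length of the 3′ UTR, the medians in siStar-PAP of batch 2 were 0.03 under 200 nt (461 genes), −0.19 from 200 to 1000 nt (964) and −0.25 above (429). In batch 1 they were −0.23, −0.41 and −0.34. Genes with the shortest 3′ UTRs were thus highest in both, and ribosomal proteins are among them.

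By level, taken from siCtrl of the other batch so that it shares no library with the change, genes under 5 RPM in siCtrl of batch 1 were more often past 2-fold in siStar-PAP of batch 2 (26.0% lower and 8.40% higher of 131) than those over 50 RPM (7.89% and 2.60% of 1001). In the other direction, 26.5% of 490 genes under 5 RPM in siCtrl of batch 2 were lower in siStar-PAP of batch 1 and 6.12% higher, against 17.9% and 3.13% of 703 over 50 RPM. Genes from 5 to 50 RPM lay between these classes in siStar-PAP of batch 2 (12.9% lower and 4.79% higher of 730). In batch 1, however, they were the most often lower (27.6% of 1140, with 4.04% higher), so the share of falls was not graded by level. Over all genes tested, whatever their level, 26.2% were lower and 4.44% higher in batch 1, and 11.7% and 3.55% in batch 2. Counting error is also larger at low levels. A gene also needed more than 50 reads over the 2 libraries in which its change was read. The classes under 5 RPM thus hold only genes that passed this cut, not all genes at that level in the other batch. What this selection adds to the shares was not tested.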

How the data were processed

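PASS reads of 7 libraries of HEK293 cells were analysed as listed in 3 tables. Per the study's methods and the submitters' processing notes, the authors aligned reads with bowtie2 in local mode (genome build hg19), kept uniquely mapped reads (MAPQ above 10) with at least 2 untemplated Ts, clustered sites within 24 nt and kept a PAS with 2 or more reads and above 5% of its gene in at least one sample. The deposited values are counts per PAS, not normalized. The number of columns left without a sample was 0. The double KD table holds siCtrl of batch 1 again, with the same count at 33682 of 33799 shared sites. Because of these filters, a gene with a single listed PAS may have others that were merged or fell below them.

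Upstream antisense sites were left out and sense sites summed per gene. RPM used the PASS read totals that the study gives per library. A gene was called past 2-fold with more than 50 reads over both libraries of a comparison, and a 0 counted as past it. Both siStar-PAP batches were fitted with edgeR 4.0.16 (quasi-likelihood, TMM, default filter, R 4.3.3) on genes listed in both tables, and DESeq2 1.42.0 was the alternative. As the labels name the batch, the replicate numbers pair the libraries, and over 11055 genes the batch deviations of siCtrl and siStar-PAP correlated at r = 0.86. Libraries are the only replicates, and nothing says that they came from separate cultures. With batch as a block, p-values rest on how far the siStar-PAP change differed between the batches, with the spread estimated partly across genes. Fits were also run on simulated data in which a change was the same in both batches. That cannot show how they perform where the batches differ. Calls were run on simulated data with counting error only. Ratio intervals are exact at the 95% level, given the sum of both counts.

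Sequence came from GRCh37, the build named hg19, and transcripts from GENCODE 44 lifted to it, in which 3877 of 3933 genes matched by symbol. Signals were searched on the sense strand. The tools also included Python 3.11.15, pandas 2.3.3, scipy 1.17.1 and matplotlib 3.10.9. Named genes were the 8 with most siCtrl reads, the 8 largest falls and rises in the fit (passing 0.05, with the batches agreeing in direction and each holding 50 reads or more), the 4 lowest and highest in each other KD with at least 200 reads, the extremes of each gene group in siStar-PAP of batch 1, BIK, HMOX1 and the 3 targeted genes. A few genes that this rule gives are not reported here. The genes, groups and rules were chosen with earlier results of these data known. Alternatives covered scaling, filters, fold, added reads, the set of genes, the block and libraries left out.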

Additional observations from a re-analysis of the deposited data

How the results depend on the processing

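The RPM calls depended on scaling. Shares and medians of all genes are given above relative to the median gene, but not for the other scalings below. Those counts and medians thus have no background and show only how the calls moved. With TMM factors, genes lower and higher in siStar-PAP of batch 1 numbered 313 and 318, in siPAPγ 272 and 278, and in the double KD 344 and 399, with 422 higher in siPAPα and 116 higher in siStar-PAP of batch 2. With DESeq2 size factors the same counts were 315 and 315, 284 and 267, 343 and 405, 402 and 122. Relative to the median gene, an alternative added after the data were seen, they were 324 and 295, 301 and 252, 367 and 360, 366 and 110. Medians (siStar-PAP of batch 1, siPAPα, siPAPγ, double KD, siStar-PAP of batch 2) then turned positive, at 0.13, 0.15, 0.11, 0.14 and 0.038 with TMM, 0.13, 0.12, 0.083, 0.15 and 0.054 with DESeq2, and 0.10, 0.068, 0.056, 0.095 and 0.024 relative to the median gene. With the totals of the tables, 230 were higher in siPAPγ and 292 in the double KD, with medians of −0.012 and −0.017 there and −0.074 in siPAPα.

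In the same order of comparisons, a fold of 1.5 gave 943, 867, 880, 900 and 475 lower and 278, 490, 310, 387 and 223 higher, and a fold of 4 gave 131, 157, 102, 171 and 34 lower and 14, 39, 21, 31 and 3 higher. For the calls in this paragraph, shares of all genes are likewise not given. With at least 1 read in each library required in place of the read filter, 192 were higher in siStar-PAP of batch 1, 865 lower in siPAPα, 772 lower in siPAPγ, and 487 lower and 188 higher in siStar-PAP of batch 2. There, more than 20 reads gave 315 and 113, and more than 200 reads 79 and 29. Among the 1951 genes with 1 site in each table, 63, 153, 96, 111 and 44 were higher, 362 were lower in siPAPα, 30 rose by edgeR, and the shares with AATAAA, another variant and no signal were 74.0%, 9.38% and 2.67%. A 30 nt window gave 64.8% with AATAAA and 9.89% with no signal. The other alternatives to these counts and shares moved none of them by over 1.5 times or beyond its interval.

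For siStar-PAP over both batches, edgeR with no filter called 80 lower and 76 higher, and DESeq2 called 84 higher. No shares of all genes are given for these alternatives. With no replicate block, and then also with each library left out in turn, 0 and 0 were called. At an unadjusted p below 0.05, 56, 45, 69 and 114 then differed without siCtrl of batch 1, siCtrl of batch 2, siStar-PAP of batch 1 and siStar-PAP of batch 2. With the block, no library could be left out, since no residual degree of freedom remains. The 16 genes with the largest changes by the naming rule kept their direction in the alternatives run and all missed the threshold without the block, and DESeq2 gave no adjusted p for PTGES, TPPP3, FAM131C and DHRS2. Counts past 2-fold in both batches ranged from 207 to 584 lower and from 72 to 107 higher when 1 batch was used.

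Depth limits the single-site rule, the KD check of TUT1 in batch 2, and PAPOLG.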
